A study of Mus musculus with 8 samples.

Results

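Genes of the Notch pathway and of the gap junctions of arterial endothelium were followed in single cardiac endothelial cells (EC) of healthy and infarcted mouse hearts. They were chosen by name and comprised 10 of the 16791 genes in the count table: the receptors Notch1 and Notch4, the ligands Dll4, Jag1 and Jag2, the nuclear effector Rbpj, the target genes Hey1 and Hes1, and the connexin genes Gja4 and Gja5, which encode Cx37 and Cx40. All 8 mice were adult Pdgfb-iCreERT2-R26R-Brainbow2.1 animals that had received tamoxifen at 150 mg/kg. In 4 of them (244, 250, 255 and 256) the left anterior descending coronary artery was ligated 14 days later and the heart was taken 7 days after myocardial infarction (MI). In the other 4 (227, 228, 239 and 240; the healthy group) no ligation was done and the heart was likewise taken 21 days after tamoxifen. Ventricular cells that were CD31+, Confetti+ and Podoplanin- were sorted, so each library held vascular EC in which Cre driven by the Pdgfb promoter had recombined the reporter, and EC without Pdgfb expression or recombination were not sampled.

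Notch receptors are single-pass membrane proteins that are activated by ligands on a neighbouring cell. Ligand binding exposes the receptor to cleavage by ADAM10 and then by gamma-secretase, and the released intracellular domain enters the nucleus and joins the DNA-binding protein RBPJ and a Mastermind co-activator to switch on target genes, among them the transcriptional repressors Hey1 and Hes1. In blood vessels the pathway is known for setting arterial identity and, through Dll4, for restraining the formation of tip cells at angiogenic sprouts. Cx37 and Cx40 join neighbouring arterial EC through gap junctions, and both genes are classical arterial markers.

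The libraries held 2750 to 5109 cells each. Healthy libraries held fewer molecules, with 6764977 to 8793655 unique molecular identifiers (UMIs) in total and a median of 1524 to 2098.5 per cell, against 15865234 to 27244947 and 3485 to 4833 in MI libraries, so the UMIs captured per cell and the group could not be told apart. Some healthy libraries shared cells: 301 matched between Healthy 227 and Healthy 228, 2030 between Healthy 228 and Healthy 239, and 2 between Healthy 239 and Healthy 240. Each was kept in 1 library only, so that 2333 were left out in all, which removed 55.3% of library 228 and 10.9% of library 227. After clusters of other cell types and lymphatic cells were also left out, 26571 EC remained (10654 healthy, 15917 MI), and the summed level of 7 endothelial markers was 5371 to 5762 CPM in healthy mice and 5138 to 5335 CPM in MI mice. The summed level of 10 mural markers over these cells was 50.5 to 139.99 CPM in healthy mice and 73.7 to 119 CPM in MI mice. Its members went both ways. Rgs5 was at 39.8 to 121 CPM in healthy and 23.2 to 43.4 CPM in MI mice. Tagln was at 0.267 to 4.11 CPM and 8.38 to 38.1 CPM, and Kcnj8 and Abcc9 were also higher after MI. The summed level of 19 haematopoietic markers was 24.0 to 168 CPM and 303 to 979 CPM. The highest value, that of MI 250, includes 9691 UMIs of Igkc in 1 cell. Levels are given as CPM, the UMIs of a gene scaled to the same total (UMIs per 1000000) in each mouse. Since a lower level over many cells can reflect fewer cells of a type or less RNA per cell, these could not be told apart in the sums over all EC. Levels were not compared between genes.

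Over all EC, 5 of the 10 genes were lower after MI, 1 was higher, and 4 did not pass the test. Notch1, Dll4, Jag2, Hey1 and Hes1 were lower and Gja5 was higher. The test was edgeR's quasi-likelihood test on UMIs summed per mouse, with p-values adjusted over all 12238 genes tested, of which 37.9% were called (18.8% higher and 19% lower). The median log2 fold change was -0.49 over the 10 genes and -0.02 over all genes tested, so the list lay lower than the average gene on a background in which many genes passed in either direction.

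Of the receptors, Notch1 (chr2:26457902-26503822), the receptor required for vascular development in the embryo, was measured at 123, 106, 135 and 128 CPM in healthy mice 227, 228, 239 and 240 and at 73.0, 87.0, 75.4 and 107 CPM in MI mice 244, 250, 255 and 256. The groups met only where MI 256 came level with Healthy 228. Its log2 fold change was -0.61 ± 0.13 (SE; edgeR adjusted p = 0.00621). Notch4 (chr17:34564286-34588543), a receptor found largely in endothelium, averaged 76.7 ± 8.68 CPM (SD, n = 4) in healthy mice and 68.8 ± 6.75 CPM (SD, n = 4) after MI. Its groups overlapped, and its log2 fold change of -0.24 ± 0.10 did not pass (edgeR adjusted p = 0.0902), although it passed when Healthy 228 (edgeR adjusted p = 0.0426) or MI 256 (edgeR adjusted p = 0.03) was left out.

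Of the ligands, Dll4 (chr2:119325784-119335666), the endothelial ligand of arteries and tip cells, was at 130, 147, 187 and 195 CPM in healthy mice and at 119.9, 133, 103 and 133 CPM after MI. Mouse Healthy 227 lay within the range of the MI group, and the other healthy mice lay above it. The log2 fold change was -0.52 ± 0.14 (edgeR adjusted p = 0.0175). Jag2 (chr12:112907803-112929812), a ligand of the Jagged family, was at 29.9, 21.1, 26.7 and 24.5 CPM in healthy mice and at 18.3, 20.1, 16.5 and 20.5 CPM after MI. All MI mice lay below all healthy mice, with a log2 fold change of -0.53 ± 0.12 (edgeR adjusted p = 0.00914). Jag1 (chr2:137081451-137116520), the other Jagged ligand, was at the same level in both groups, 36.9 ± 10.1 CPM (SD, n = 4) in healthy mice and 36.6 ± 8.65 CPM (SD, n = 4) after MI, and did not pass (log2 fold change -0.10 ± 0.21, edgeR adjusted p = 0.718).

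Both target genes were lower after MI. Hey1 (chr3:8663359-8667038) was at 94.1, 96.9, 208 and 171 CPM in healthy mice and at 83.5, 85.0, 71.5 and 90.9 CPM after MI. The groups did not overlap, but Healthy 227 and Healthy 228 lay close to the MI group and well below Healthy 239 and Healthy 240. The log2 fold change was -0.87 ± 0.24 (edgeR adjusted p = 0.0165). Hes1 (chr16:30065357-30067796) was at 200.3, 321, 412 and 448 CPM in healthy mice and at 217, 253, 230.5 and 245 CPM after MI, so that Healthy 227 was the lowest of all 8 mice and the other healthy mice were above the MI group. Its log2 fold change was -0.63 ± 0.21 (edgeR adjusted p = 0.0357). The Hes1 call did not hold when any mouse other than Healthy 227 was left out (edgeR adjusted p from 0.0562 to 0.0918), nor with library sizes alone in place of TMM scaling (-0.55, edgeR adjusted p = 0.0579), an alternative added after the data had been seen.

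The calls for Dll4 (log2 fold change -0.42, edgeR adjusted p = 0.0644), Jag2 (-0.41, 0.0644), Hey1 (-0.64, 0.0644) and Hes1 (-0.61, 0.0559) were also lost when every cell was thinned to 1000 UMIs. Summed levels of 16 genes known to respond to tissue dissociation were 6424, 10635, 9379 and 10144 CPM in healthy mice 227, 228, 239 and 240 and 6666 to 9330 CPM in MI mice. Healthy 227, the lowest healthy mouse for Dll4, Hey1 and Hes1, was also the lowest for these genes, and their part in the differences was not tested.

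Rbpj (chr5:53555779-53657445), the DNA-binding partner of the cleaved receptors, was at 33.6, 36.0, 15.0 and 17.4 CPM in healthy mice and at 18.7, 19.6, 19.8 and 19.3 CPM after MI. Healthy 227 and Healthy 228 stood above the MI mice, and Healthy 239 and Healthy 240 stood below them. The log2 fold change of -0.47 ± 0.26 did not pass (edgeR adjusted p = 0.174). It passed without Healthy 239 (-0.66, edgeR adjusted p = 0.041) and became 0.18 without Healthy 227 and Healthy 228, an alternative added after the data had been seen. Processed pseudogenes of Rbpj exist in the mouse genome, so its UMIs are uncertain.

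Of the connexin genes, Gja5 was higher after MI and Gja4 did not pass. Gja5 (chr3:97032402-97053634) was at 13.3, 11.4, 32.4 and 14.7 CPM in healthy mice, from 80, 55, 244 and 110 UMIs, and at 42.9, 35.2, 71.2 and 49.6 CPM after MI, from 1002, 828, 1546 and 701 UMIs. All MI mice lay above all healthy mice, and Healthy 239 stood apart from the other healthy mice. The level was 2.57-fold higher after MI (log2 fold change 1.36 ± 0.32, edgeR adjusted p = 0.00884). The call was lost when Healthy 227 and Healthy 228 were both left out (log2 fold change 0.997, edgeR adjusted p = 0.0741). Gja4 (chr4:127311420-127314039) was at 49.4, 87.0, 126 and 61.9 CPM in healthy mice and at 126, 88.5, 139 and 129 CPM after MI. Healthy 239 reached the MI range, and the log2 fold change of 0.48 ± 0.26 did not pass (edgeR adjusted p = 0.167) unless that mouse was left out (0.78, edgeR adjusted p = 0.0217).

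**Figure D1:**
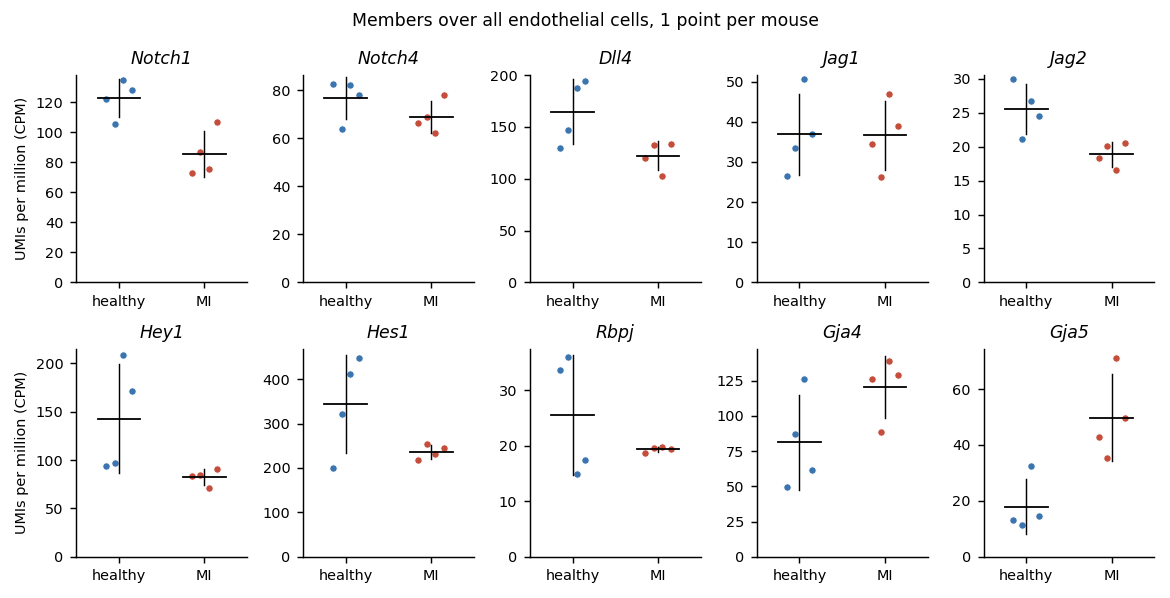
Level of each of the 10 genes over all EC in CPM (y axes, linear from 0) in 4 healthy and 4 MI mice, 1 point per mouse, with the mean (horizontal bar) and SD (vertical bar). All MI points of Gja5 lie above all healthy points, and all MI points of Jag2 and Hey1 lie below all healthy points.

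The pathway's other genes were tested in the same fit. Of 44 further genes for Notch receptors, ligands, processing enzymes, co-factors and targets, 37 were tested over all EC. Of these, 4 rose after MI, namely the fringe glycosyltransferase Mfng (log2 fold change 0.47), the Hes family member Hes6 (0.44), the gamma-secretase subunit Ncstn (0.37) and Dtx3 of the Deltex family (0.32). Lower after MI were the Mastermind co-activator Maml2 (-0.44), the RBPJ-binding co-repressor Spen (-0.77) and the ubiquitin ligase Itch (-0.90), and 30 did not pass. The 7 called of 37 compare with 37.9% of all genes in the same test. The median over the list was -0.11, against -0.02 over all genes tested.

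The other arterial and connexin genes were tested in the same fit. Of 32 such genes, 29 were tested, 14 were lower and 3 were higher, against 19% and 18.8% of all genes, with a median log2 fold change of -0.43 against -0.02 over all genes tested. The higher ones were Clu, which encodes the secreted chaperone clusterin (1.84), the transcription factor Sox18 (1.54) and elastin, Eln (1.19). The 6 with the lowest values were Alpl (-1.77), the cell cycle inhibitor Cdkn1c (-1.70), the chemokine Cxcl12 (-1.36), the retinol-binding protein Rbp7 (-1.13), the taurine transporter Slc6a6 (-1.05) and the flow-responsive factor Klf4 (-0.78). The rise of Gja5 was therefore not shared by most of this arterial list.

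To place the genes along the vascular tree, cells were sorted by the UMIs of 6 marker genes: arterial cells had a UMI of Sema3g or Fbln5, capillary cells of Car4, sprouting cells of Apln (apelin, a tip cell peptide) and venous cells of Nr2f2 (COUP-TFII, the venous fate regulator), and Plvap-high cells had at least 2 UMIs of Plvap, a protein of fenestrated and activated endothelium, making up at least 10 per 10000 UMIs of the cell. A class held 12837 cells that met exactly 1 rule. The 8952 cells that met none and the 4782 that met several (680 healthy, 4102 MI) were in no class. Plvap-high cells numbered 3 in healthy mice and 33 to 175 per MI mouse, so that class was described in MI mice only.

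Of the 10 genes, 7 were higher in arterial than in capillary cells, without counting Gja5. UMIs summed per mouse and class were compared in 1 edgeR fit with the mouse as a block over 36 sums, and 23.7% of the 10255 genes tested differed between arterial and capillary cells (12.2% were higher and 11.5% lower in arterial cells). The 7 genes were Gja4, Jag1, Hey1, Notch4, Dll4, Notch1 and Jag2 (edgeR adjusted p of at most 0.00065), Hes1 was lower, and Rbpj did not pass. The authors list Dll4, Notch1, Hey1, Jag1 and Gja4 among the top genes of 1 cluster of these same cells. Calls of these genes are therefore no independent support for an arterial pattern. Gja5 passed the filter on low counts through the arterial sums, where it is high. Its call was therefore fixed by the filter, and its levels are given as a description. The median of the 10 log2 fold changes was 0.66, against -0.02 over all genes tested. The 7 genes other than Gja5 were called higher and Hes1 lower under every alternative run on this contrast, including leaving out each mouse.

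Both connexin genes were far higher in arterial cells than in capillary cells, where their levels did not exceed those in haematopoietic cells (below). Their fold changes are therefore given as a description of size only. Gja5 was at 97.2, 72.8, 145 and 107 CPM in arterial cells of healthy mice and at 0.504, 0.608, 1.98 and 1.87 CPM in capillary cells of the same mice. After MI it was at 231, 179, 365 and 210.5 CPM in arterial and at 3.40, 5.19, 10.4 and 6.91 CPM in capillary cells. In no mouse did the capillary level come near the arterial one, and the log2 fold change was 5.44 ± 0.13 (2.89 to 6.20 under the alternatives). Gja4 averaged 425 ± 104 CPM (SD, n = 4) in arterial and 13.3 ± 7.16 CPM (SD, n = 4) in capillary cells of healthy mice, and 550.02 ± 79.98 CPM (SD, n = 4) and 20.1 ± 3.86 CPM (SD, n = 4) after MI, with a log2 fold change of 4.78 ± 0.10 (3.06 to 5.19). The size depended on the gate, since the lowest value of each, 2.89 for Gja5 and 3.06 for Gja4, was that with cells that met several rules kept.

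Outside the arterial class the connexin levels were compared with those in other cell types. In haematopoietic cells pooled from the same libraries, Gja4 was at 39.0 CPM in healthy and 49.3 CPM in MI mice, and Gja5 at 12.3 and 19.1 CPM. Capillary, sprouting and venous cells did not exceed these values in any mouse. The haematopoietic cells also held the endothelial gene Cdh5, at 200 CPM in healthy and 266 CPM in MI mice. Over EC it was at 1075 and 996 CPM. How much of the connexin UMIs of haematopoietic cells came from endothelial RNA was not tested. Since macrophages are known to make some Cx37, Gja4 was examined in other cells too. It was at 16.8 CPM (2 UMIs) in healthy and 21.9 CPM (10 UMIs) in MI fibroblasts and at 3.54 CPM (1 UMI) and 26.5 CPM (17 UMIs) in erythroid cells, and single mice exceeded the fibroblast levels, with up to 23.3 CPM in healthy and 25.3 CPM in MI capillary cells and up to 27.0 CPM in healthy venous cells. For Gja4 in these classes, expression and background could therefore not be told apart. Venous cells of the healthy mice held no UMI of Gja5 in 908496 UMIs, which allows up to 3.30 CPM (3 counts over the group; counting error only), and those of MI mice held 1.58 to 3.48 CPM. Gja5 in venous against capillary cells compares levels that both lie below the haematopoietic ones, and it entered this fit through the arterial sums. The log2 fold change was -1.27 ± 0.45 (edgeR adjusted p = 0.0343), a call that was lost without MI 250 (0.068), MI 255 (0.274) or MI 256 (0.0901), with cells that met several rules kept (0.697), with thinning before gating (0.0587), in healthy mice alone (0.419) and with DESeq2 (0.127). Gja4 in Plvap-high cells was at 149, 96.3, 133 and 63.6 CPM in MI mice 244, 250, 255 and 256, above the pooled haematopoietic level in each mouse and higher than in capillary cells (log2 fold change 2.60 ± 0.18, and 1.04 with cells that met several rules kept). Gja5 in the same cells was at 5.55, 6.02, 13.6 and 0 CPM.

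Among the ligands, Jag1 differed most between arterial and capillary cells. It averaged 114 ± 34.1 CPM (SD, n = 4) in arterial and 17.3 ± 2.37 CPM (SD, n = 4) in capillary cells of healthy mice, a log2 fold change over both groups of 2.93 ± 0.12 (1.96 with cells that met several rules kept). The pooled haematopoietic cells held Jag1 at 14.5 CPM in healthy and 17.0 CPM in MI mice, and erythroid cells at 21.3 CPM (6 UMIs) and 4.67 CPM (3 UMIs), so that expression and background could not be told apart for Jag1 in capillary cells. Venous cells also held more Jag1 than capillary cells, at 48.0 ± 29.0 CPM (SD, n = 4) in healthy and 35.8 ± 14.7 CPM (SD, n = 4) in MI mice (log2 fold change 1.34 ± 0.19). Dll4 had another order. It averaged 255 ± 37.1 CPM (SD, n = 4) in arterial, 162 ± 29.1 CPM (SD, n = 4) in capillary, 159 ± 34.7 CPM (SD, n = 4) in sprouting and 46.2 ± 24.6 CPM (SD, n = 4) in venous cells of healthy mice.

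Against capillary cells, the log2 fold change of Dll4 was 0.63 ± 0.07 in arterial, -0.21 ± 0.08 in sprouting, -1.53 ± 0.10 in venous and -0.99 ± 0.14 in Plvap-high cells, and all of these passed (edgeR adjusted p = 0.028 for sprouting cells, and lower for the others). The difference in sprouting cells was -0.03 in healthy mice alone and was not called without MI 244 (edgeR adjusted p = 0.141), MI 250 (0.053), MI 255 (0.0606) or MI 256 (0.0977), with thinned cells (0.0823) or with DESeq2 (0.0855). Jag2 was higher in arterial cells by 0.51 ± 0.12 (log2), and in the other classes it did not pass, at -0.09 in sprouting, -0.36 in venous and -0.62 in Plvap-high cells (edgeR adjusted p = 0.698, 0.152 and 0.122).

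Hey1 followed the arterial class and Hes1 did not. Hey1 was at 382, 418, 577 and 594 CPM in arterial cells of healthy mice and at 59.5, 40.1, 123 and 106 CPM in capillary cells, and the log2 fold change was 2.45 ± 0.10. It was lower than in capillary cells in sprouting (-1.72 ± 0.17) and venous cells (-2.02 ± 0.22). Its means in both, 14.7 and 30.9 CPM in healthy and 19.5 and 13.2 CPM in MI mice, were below the pooled haematopoietic levels of 35.7 CPM in healthy and 23.2 CPM in MI mice, although single mice reached above them. Hes1 was lower in arterial (-0.38 ± 0.08), sprouting (-0.52 ± 0.09) and venous cells (-0.42 ± 0.09) than in capillary cells, and the venous call was lost with thinning before gating (-0.27, edgeR adjusted p = 0.0603) and in MI mice alone (-0.28, edgeR adjusted p = 0.0572). Its level in capillary cells of healthy mice ranged from 192 CPM in Healthy 227 to 517 CPM in Healthy 239. The class differences were taken within mice, with the mouse as a block, so this spread between mice is not their error.

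Of the receptors, Notch1 was higher in arterial cells (log2 fold change 0.52 ± 0.07) and lower in sprouting cells (-0.36 ± 0.08) than in capillary cells. Notch4 was higher in arterial (0.69 ± 0.09) and in sprouting cells (0.35 ± 0.10, edgeR adjusted p = 0.00767), the latter call being lost without MI 250 (edgeR adjusted p = 0.0665), with at least 2 UMIs of the marker (0.112) and with thinning before gating (0.0547). Rbpj passed in no class, with log2 fold changes from -0.39 to 0.04. Of all genes tested, 28.4% were called in sprouting cells (15.2% higher and 13.2% lower), 22.8% in venous cells (12.1% and 10.7%) and 19.7% in Plvap-high cells (10.5% and 9.19%) against capillary cells. Of the 10 genes, 1 was higher and 4 were lower in sprouting cells, 1 was higher and 4 were lower in venous cells (3 without Gja5, which entered through the arterial sums), and 1 was higher and 1 was lower in Plvap-high cells.

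**Figure D2:**
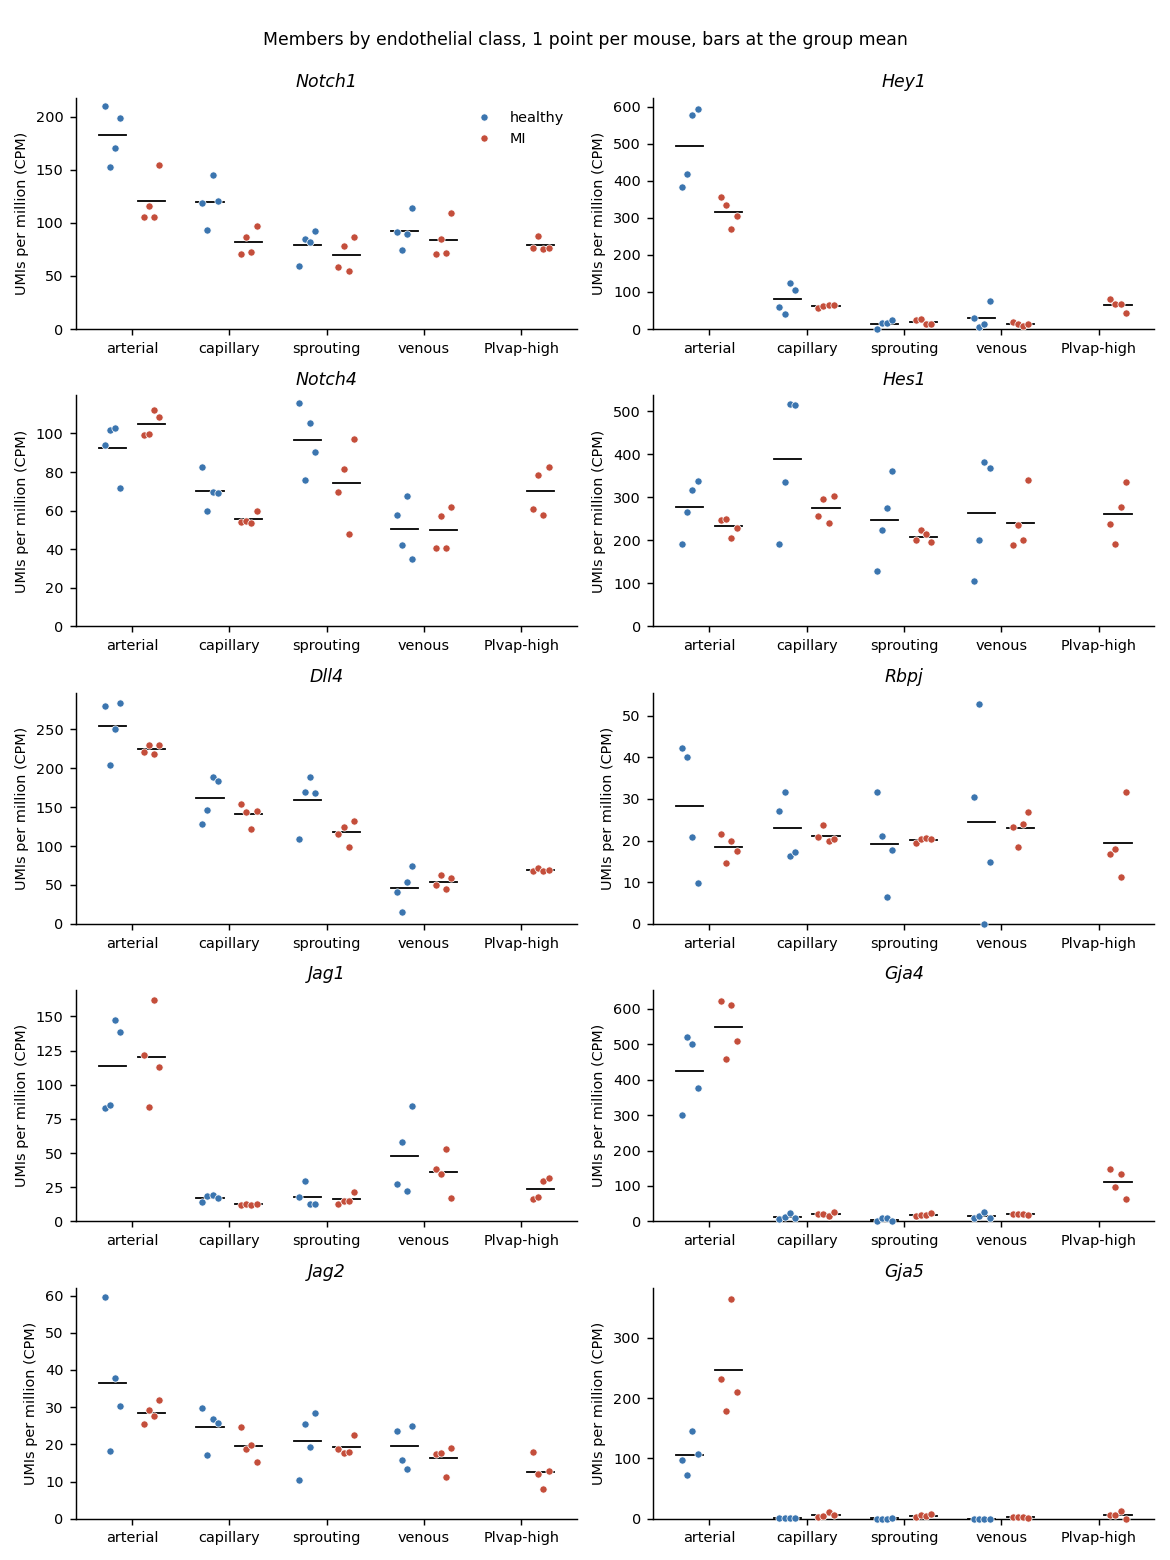
Level of each of the 10 genes in CPM (y axes, linear from 0) in arterial, capillary, sprouting, venous and Plvap-high cells, 1 point per mouse, blue for healthy and red for MI, with a bar at the mean. Gja4, Gja5, Jag1 and Hey1 are highest in arterial cells in both groups, and Plvap-high cells are shown for MI mice only.

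**Figure D3:**
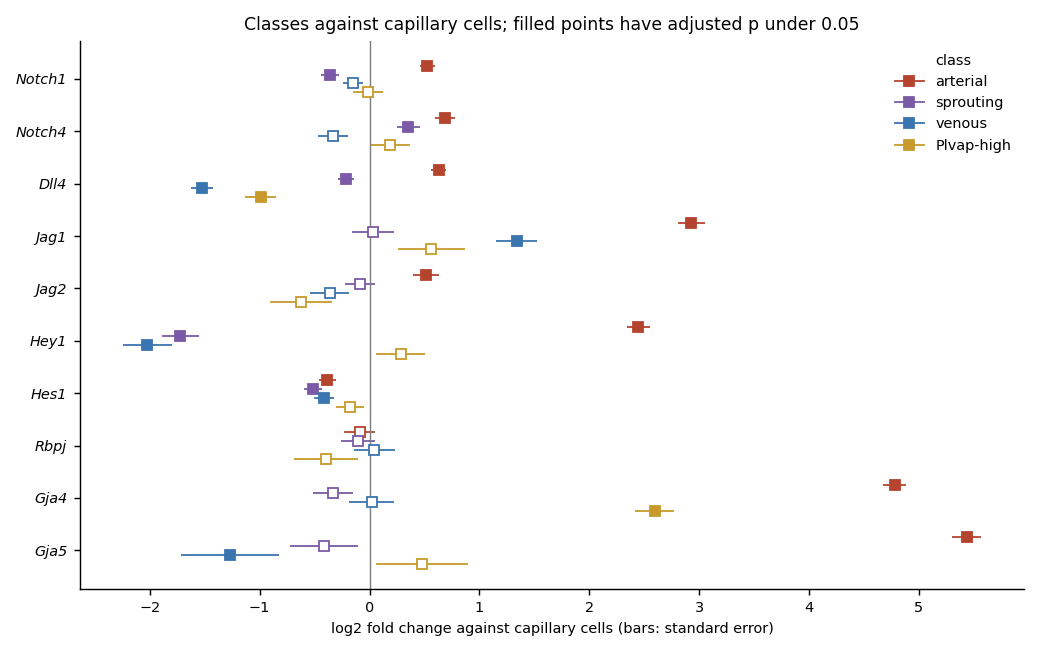
Log2 fold change of each of the 10 genes in arterial, sprouting, venous and Plvap-high cells against capillary cells (x axis; bars are standard errors), filled where the edgeR adjusted p was under 0.05. Arterial points of Gja4 and Gja5 lie at 4.78 and 5.44, and Hes1 lies below 0 in all classes.

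The other arterial and connexin genes were not used by the arterial gate. Their list was chosen with earlier results of these data known, so its direction here is no independent support for the gate. Of 29 tested, 23 were higher and 4 lower in arterial than in capillary cells, against 12.2% and 11.5% of all genes. The highest were Gkn3 (log2 fold change 5.14), the tyrosine kinase Bmx (4.54), Clu (4.04), Mgp (3.83), Vegfc (3.61) and Eln (3.44). Lower were Cdkn1c (-0.31), Nrp1 (-0.39), Sox7 (-0.69) and Hdac9 (-1.79). The list did not mark arterial cells alone. In venous against capillary cells 11 of the 29 were higher and 15 lower, against 12.1% and 10.7% of all genes. Among the higher ones were Eln (4.08), Mgp (3.14), Vegfc (2.77), Bmx (2.28) and Clu (1.39). Of 34 other Notch pathway genes tested, 5 were higher and 3 lower, against 12.2% and 11.5% of all genes. The higher ones included the presenilin gene Psen2 (0.70), the Notch target Nrarp (0.46), Poglut1 (0.40) and Ncstn (0.30). Lower in arterial cells were Snw1 (-0.25), Lfng (-0.52) and Neurl1b (-1.49).

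In venous cells 7 of the 34 were higher and 4 lower than in capillary cells, against 12.1% and 10.7% of all genes. The ligand gene Dll1 (log2 fold change 1.47), the receptor gene Notch2 (1.01), the fringe gene Lfng (0.99), Psen2 (0.90), Fbxw7 (0.56) and Mib1 (0.48) were among the higher ones. Lower were Mfng (-0.45), Hes6 (-0.50), Rfng (-0.61) and Nrarp (-0.97). In sprouting cells 1 of the 34 was higher and 3 were lower, against 15.2% and 13.2% of all genes. Adam10, the protease that cleaves bound receptors, was higher (0.39), and Nrarp (-0.21), Hes6 (-0.36) and Rfng (-0.51) were lower. Of the 29 other arterial and connexin genes, 1 was higher in sprouting cells, Vegfc (0.85), and 18 were lower. The lowest values were those of Alpl (-2.45) and Cdkn1c (-2.19).

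Cells in no class were measured in the same way. In cells that met no rule, Gja5 was at 4.48 ± 2.26 CPM (SD, n = 4) in healthy and 9.60 ± 2.05 CPM (SD, n = 4) in MI mice, above the capillary means but below the pooled haematopoietic levels. In cells that met several rules it was at 19.2 ± 13.2 CPM (SD, n = 4) and 40.5 ± 6.08 CPM (SD, n = 4), with both means above the haematopoietic levels, Gja4 at 78.1 ± 30.4 CPM (SD, n = 4) and 93.1 ± 16.9 CPM (SD, n = 4), above them in every mouse, and Hey1 at 101 ± 23.8 CPM (SD, n = 4) and 46.2 ± 5.50 CPM (SD, n = 4). These values lie between the arterial and the capillary levels in each group, apart from Hey1 after MI, which was below both.

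The groups were then compared within a class, since class shares differed. The share gated as capillary was lower after MI, and the sprouting, venous and Plvap-high shares were higher. With every cell thinned to 1000 UMIs before gating, capillary cells made up 21.7% ± 1.82 (SD, n = 4) of EC in healthy and 8.59% ± 4.45 (SD, n = 4) in MI mice, while arterial cells made up 9.47% ± 3.03 (SD, n = 4) and 10.2% ± 0.881 (SD, n = 4; exact permutation test, two-sided, p = 0.714). The capillary, sprouting, venous and Plvap-high shares differed (exact permutation test, p = 0.0286, the smallest that 70 splits of 8 mice allow, adjusted 0.0357 over 5 classes). The level of Car4, the capillary gating gene, was itself 257 to 306 CPM over all EC of healthy mice and 34.8 to 154 CPM after MI. Whether cells of a type changed in number or in their level of the gating gene was not tested. The arterial gating genes averaged 56.3 ± 11.7 CPM (SD, n = 4) in healthy and 38.5 ± 8.89 CPM (SD, n = 4) in MI mice for Sema3g, and 109 ± 46.6 CPM (SD, n = 4) and 161 ± 25.0 CPM (SD, n = 4) for Fbln5, with groups that overlapped.

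Within arterial cells, Notch1 and Hey1 were lower and Gja5 was higher after MI, and the other 7 genes did not pass. Of the 9495 genes tested in this class 16.4% were called (7.9% higher and 8.53% lower). Arterial Notch1 was at 209.97, 153, 170.2 and 198 CPM in healthy mice and at 106, 116, 105 and 154 CPM after MI, where only MI 256 reached the healthy range (log2 fold change -0.68 ± 0.15, edgeR adjusted p = 0.00637). Arterial Hey1 was at 355, 334, 271 and 304 CPM after MI, with every MI mouse below the healthy range of 382 to 594 CPM (log2 fold change -0.72 ± 0.15, edgeR adjusted p = 0.00422).

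Arterial Gja5, with the values given above, was higher in every MI mouse than in any healthy mouse. The level was 2.16-fold higher (log2 fold change 1.11 ± 0.22, edgeR adjusted p = 0.00416). Arterial Gja4 was at 301, 520.3, 502 and 376 CPM in healthy mice and at 622, 458, 612 and 508 CPM after MI. The groups overlapped and the log2 fold change of 0.29 ± 0.16 did not pass (edgeR adjusted p = 0.238). Arterial Dll4 was at 280.5, 204, 250.4 and 284 CPM in healthy mice and at 222, 229.8, 219 and 230.4 CPM after MI, a log2 fold change of -0.25 ± 0.11 that did not pass (edgeR adjusted p = 0.133). It passed in 3 of 15 alternatives: without Healthy 228 (edgeR adjusted p = 0.0458), with thinning before gating (-0.36, 0.0491) and with cells that met several rules kept (-0.73, 0.00204). Hes1 was called lower in 4 of 15, among them without Healthy 227 (edgeR adjusted p = 0.0158), and Rbpj in 1, without Healthy 240 (edgeR adjusted p = 0.0453).

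The Gja5 difference within arterial cells was called in 13 of 15 alternatives, and its size and call depended in part on the gate. When cells that met several rules were kept, its log2 fold change was 0.54 (edgeR adjusted p = 0.0705), Gja4 changed sign to -0.27, and 6 of the 10 genes were called, all lower, among 3187 genes called in all (1612 higher and 1575 lower), against 1560 under the main gate. When Healthy 227 and Healthy 228 were left out, Gja5 was at 0.87 (edgeR adjusted p = 0.0501). With every cell thinned before gating it was 1.15, and it stayed called, as did Notch1 and Hey1. Summed mural markers in arterial cells were 116 to 244 CPM in healthy and 114 to 169.6 CPM in MI mice. Haematopoietic markers were 21.9 to 157 CPM and 269 to 5409 CPM, the highest value owing 9691 UMIs of Igkc to 1 cell of MI 250. Genes that respond to dissociation were at 9250 to 13191 CPM (median 12418) in healthy and 7396 to 10545 CPM (median 8307) in MI mice. Of the arterial gating genes, Sema3g was at 313 to 414 CPM in arterial cells of healthy and 174 to 244 CPM in those of MI mice, without overlap, and Fbln5 at 622 to 890 CPM and 754 to 880 CPM. Each cell of the class holds at least 1 UMI of one of them, which weighs more in cells with fewer UMIs (median 2131 to 3027 in healthy and 3393 to 4368 in MI mice), so these levels, like membership in a class, depend on the UMIs per cell. The part of these markers and gating genes in the differences was not tested.

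**Figure D4:**
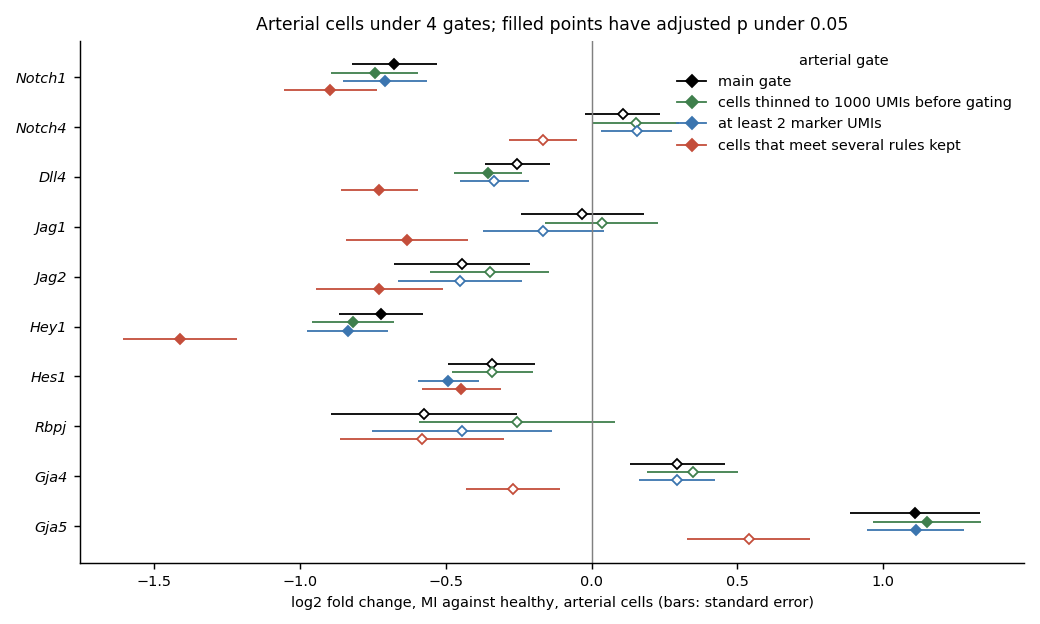
Log2 fold change of each of the 10 genes after MI within arterial cells (x axis; bars are standard errors) under 4 gates, filled where the edgeR adjusted p was under 0.05. Notch1 and Hey1 are below 0 and called under each gate, while Gja5 is at 1.11 under the main gate and at 0.54, not called, when cells that meet several rules are kept.

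Within capillary cells, in which 9 of the 10 genes were tested and 18.4% of 9658 genes were called (9.52% lower), Notch1 and Notch4 were lower after MI. Capillary Notch1 was at 119, 93.0, 145 and 121 CPM in healthy mice and at 70.9, 86.7, 72.7 and 96.8 CPM after MI (log2 fold change -0.60 ± 0.14, edgeR adjusted p = 0.0135), with only MI 256 inside the healthy range. Capillary Notch4 was at 82.7, 59.6, 69.8 and 69.2 CPM in healthy mice and at 53.9, 54.9, 53.8 and 59.9 CPM after MI, where MI 256 came level with Healthy 228. Its log2 fold change was -0.40 ± 0.12 (edgeR adjusted p = 0.0304). This call was lost when Healthy 227, MI 244, MI 250 or MI 255 was left out (edgeR adjusted p from 0.0709 to 0.097), without both Healthy 227 and 228 (edgeR adjusted p = 0.0669), in thinned cells (0.0762) and with DESeq2 (0.0574). Jag1 in capillary cells was at 14.1 to 19.3 CPM in healthy and 11.7 to 12.9 CPM in MI mice, groups that did not overlap near or below the haematopoietic levels given above, and did not pass (log2 fold change -0.53 ± 0.19, edgeR adjusted p = 0.063). Single healthy mice and the gate also decided other genes here. Without Healthy 227, Jag1 (edgeR adjusted p = 0.0489) and Hes1 (0.00618) were called lower, without Healthy 228 Hey1 was called lower (0.0427), and without Healthy 239 Gja4 was called higher (0.031). With cells that met several rules kept, Dll4 (0.0302), Hey1 (0.0296), Hes1 (0.0307) and Gja4 (0.0323) were called in the same directions. Gja5 was under the filter on low counts in capillary cells. All MI mice lay above all healthy mice for Gja5, at levels below the haematopoietic ones in both groups. Its log2 fold change without the filter (2.12 ± 0.51, edgeR adjusted p = 0.0077) is therefore no result about the gene. Summed haematopoietic markers in capillary cells were 20.7 to 180 CPM in healthy and 310 to 514 CPM in MI mice, fibroblast markers 7.48 to 14.4 CPM and 18.9 to 24.0 CPM, and mural markers 46.7 to 94.2 CPM and 52.4 to 99.1 CPM. Their part in the differences was not tested.

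In sprouting cells 9 of the 10 genes were tested, and 5.17% of 8240 genes were called (1.82% higher). The call of Gja4, the only one among the 9, is no result about the gene, since it passed the filter on low counts only through the MI group. Its UMIs were 0, 2, 4 and 1 in healthy mice and 57, 38, 40 and 32 after MI, or 0, 8.45, 8.59 and 1.77 CPM and 15.0, 17.3, 17.6 and 23.2 CPM, all below the haematopoietic level, the highest being above the 21.9 CPM of fibroblasts. The log2 fold change was 1.86 ± 0.50 (edgeR adjusted p = 0.0455), and the call was lost without Healthy 227 (edgeR adjusted p = 0.101), Healthy 228 (0.0561), Healthy 240 (0.2) or both Healthy 227 and 228 (0.112). Without any one of the MI mice Gja4 was under the filter on low counts. Dll4 in sprouting cells averaged 118 ± 13.9 CPM (SD, n = 4) after MI, against 159 CPM in healthy mice, and did not pass (log2 fold change -0.54 ± 0.16, edgeR adjusted p = 0.0657). It passed in 4 of 15 alternatives: without Healthy 227 (edgeR adjusted p = 0.0257), MI 256 (0.0377) or both Healthy 227 and 228 (0.0412), and with cells that met several rules kept (0.0222).

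In venous cells 6 of the 10 genes were tested and 0 were called, against 8.32% of 6130 genes. By edgeR 0 were under 0.05 without adjustment, and DESeq2 called 0. Healthy mice had 45 to 75 venous cells each, and Rbpj, for one, ranged from 0 to 52.8 CPM among them. Of the 4 genes under the filter on low counts, Hey1 was called lower without it (log2 fold change -1.31 ± 0.41, edgeR adjusted p = 0.0247), at 5.28 to 74.5 CPM in healthy and 7.30 to 19.7 CPM in MI mice, groups that overlapped. Jag2, Gja4 and Gja5 did not pass without it. Summed haematopoietic markers were 13.5 to 121 CPM in venous cells of healthy and 315 to 451 CPM in those of MI mice, and genes that respond to dissociation 7387 to 14031 CPM and 7030 to 9683 CPM. In sprouting cells haematopoietic markers were 38.0 to 152 CPM and 278 to 511 CPM, and genes that respond to dissociation 4483 to 6973 CPM and 6078 to 7261 CPM. Fibroblast markers there were 1.77 to 10.5 CPM in healthy and 18.0 to 23.2 CPM in MI mice, without overlap. Endothelial markers were 4228 to 4499 CPM and 4768 to 4909 CPM, also without overlap. The part of all these markers in the differences was not tested.

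**Figure D5:**
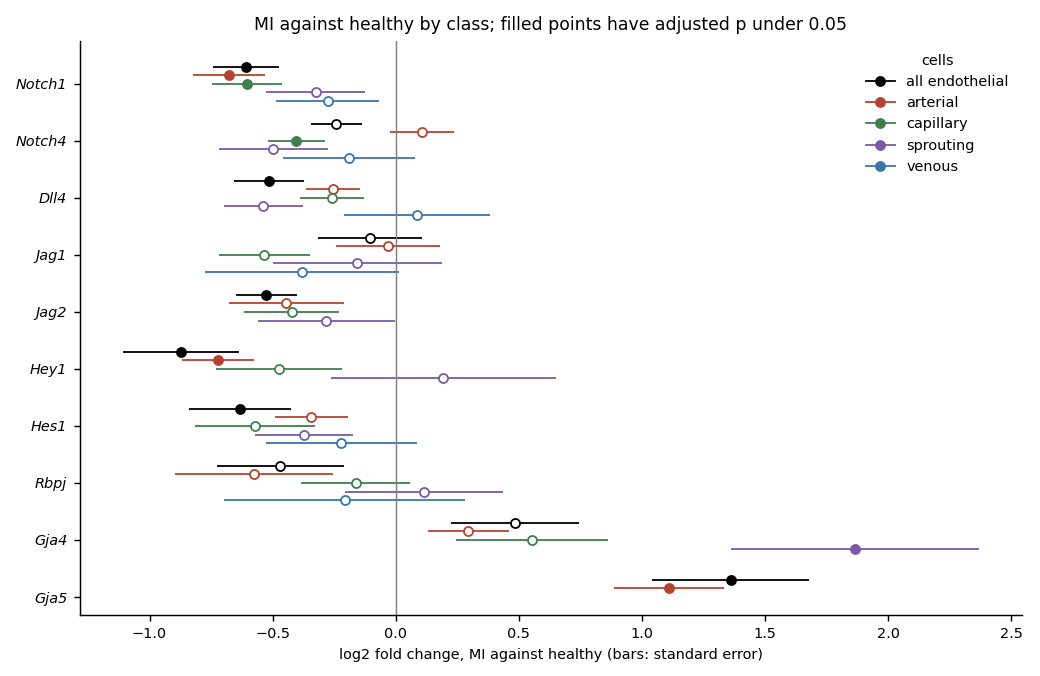
Log2 fold change after MI (x axis; bars are standard errors) of each of the 10 genes over all EC and within arterial, capillary, sprouting and venous cells, filled where the edgeR adjusted p was under 0.05 and left out where the gene was not tested. Notch1 lies below 0 in all 5 sets of cells and is called over all EC, in arterial and in capillary cells.

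No gene of the 10 was shown to respond differently to MI in arterial and capillary cells. The difference between the effects was tested in 1 edgeR fit with the mouse as a block, in which 1.83% of 10770 genes were called and 0 of the 10 (3 were under 0.05 without adjustment, and DESeq2 called 0). The 3 were Notch4, whose effect was 0.50 ± 0.15 higher (log2) in arterial cells (edgeR adjusted p = 0.083), Gja5 (-1.10 ± 0.43, edgeR adjusted p = 0.264) and Hes1 (0.26 ± 0.10, edgeR adjusted p = 0.245). Gja5 entered this fit through the arterial sums, and its capillary levels were below the haematopoietic ones in both groups, so its difference between effects is no result about the gene. It was called with cells that met several rules kept (-1.42, edgeR adjusted p = 0.0174). The Notch4 difference was called without Healthy 228 (edgeR adjusted p = 0.0428), with shared cells kept (0.0205) and with at least 2 UMIs of the marker (0.0128).

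Within arterial cells Mfng (log2 fold change 0.62) and Dtx3 (0.52) were higher after MI, and Itch (-0.60), Maml2 (-0.73) and Spen (-0.84) were lower, 5 of 32 Notch pathway genes tested, against 16.4% of all genes. Of 28 other arterial and connexin genes, Sox18 (1.57) and Clu (0.71) were higher, and 14 were lower, with the lowest values for Alpl (-1.41), Cdkn1c (-1.17), Edn1 (-1.06), Klf4 (-0.87), Slc6a6 (-0.85) and Rbp7 (-0.83). Sox18 was also higher in capillary (1.59), sprouting (1.96) and venous cells (1.80). In the test of the difference between effects, 6 of 29 were called, against 1.83% of all genes. The effect was lower in arterial than in capillary cells for Clu (-1.65), Vegfc (-0.88), Mgp (-0.79), Klf4 (-0.43) and Klf2 (-0.42), and higher for Cxcl12 (0.49).

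The share of EC with a UMI of a gene depended on depth. With each cell thinned to 1000 UMIs, a Gja5 UMI was found in 1.42% ± 0.767 (SD, n = 4) of EC in healthy and 3.06% ± 0.774 (SD, n = 4) in MI mice, and the difference did not pass (exact permutation test, two-sided, p = 0.0571, adjusted 0.381 over the 10 genes). In haematopoietic cells thinned in the same way the share was 1.28% in healthy and 1.15% in MI mice, where median depths were 4618 and 6959 UMIs against 2103 and 4128 in EC, so the healthy share of Gja5 was near background. The Notch1 share was 12.1% ± 1.78 (SD, n = 4) and 9.10% ± 2.19 (SD, n = 4), against 5.77% and 3.52% in haematopoietic cells (exact permutation test, p = 0.114). Without thinning, the share of EC with a UMI was higher after MI for all 10 genes, 7 of which passed, in the deeper libraries. Healthy cells under 1000 UMIs, 580 in number, were left out of the thinned shares, and no MI cell was.

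Joint detection of the connexin genes was counted in thinned arterial cells. A Gja5 UMI was found in 9.43%, 6.02%, 11.9% and 8.65% of them in healthy mice and in 14.1%, 11.97%, 19.8% and 11.8% in MI mice, which limits how often both can be found. Both were found in 3.69%, 1.81%, 5.22% and 3.53% of arterial cells in healthy mice 227, 228, 239 and 240 and in 8.16%, 7.18%, 9.64% and 6.39% in MI mice 244, 250, 255 and 256. Among arterial cells with a Gja4 UMI, 18.4%, 5.17%, 14.0% and 14.5% also had a Gja5 UMI in healthy mice and 21.4%, 24.0%, 27.5% and 18.4% after MI, above the share over all arterial cells in each mouse but Healthy 228. The Gja4+ cells behind these values numbered 49, 58, 207 and 76 in healthy mice and 175 to 206 in MI mice.

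Across the 36 sums by mouse and class, genes were ranked by Pearson's correlation of log2 CPM with each of the 10, as a description only, since the sums share libraries and classes. Gja5 was most like Serpinf1 (r = 0.95), Azin1 (0.94) and Slc45a4 (0.92), and Gja4 most like Glul (0.93), Fn1 (0.91) and S100a4 (0.90). Dll4 was most like the netrin receptor gene Unc5b (0.94), Nrarp (0.88) and Btnl9 (0.86). Hey1 was most like Sox17, an arterial transcription factor (0.92), Tm4sf1 (0.87) and Alox12 (0.86).

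Jag1 was most like Stmn2 (0.86), Fn1 (0.85) and Vegfc (0.85), and Notch1 most like St6galnac3 (0.90) and the inhibitory Smad genes Smad7 (0.89) and Smad6 (0.87). Notch4 was most like Mast4 (0.78), Plekhg1 (0.75) and Pdgfb (0.70), the gene whose promoter drove Cre. The nearest genes were Msx1 (0.76), Rnpepl1 (0.73) and Adgre5 (0.73) for Jag2, Rbm39, Snrk and Eif1 (0.78 each) for Hes1, and Kat7 (0.84), Rel (0.82) and Slfn3 (0.81) for Rbpj. Among the 10 genes, the highest correlation was that of Gja4 with Gja5 (r = 0.885), while Hes1 and Rbpj reached at most 0.387 and 0.153 with any other gene of the 10.

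Promoter sequence was examined because the arterial genes shared their class pattern. The RefSeq promoter table for GRCm38.p6, the patched form of the mm10 build of the files, held 8 of the 10 genes, and Hey1 and Hes1 were not among them. The 250 bases before each start were searched on both strands for the RBPJ core motif TGGGAA and for the E-box CACGTG. The first was found in 21.6% and the second in 6.02% of 32851 promoters of the same length. The promoters of Gja5 (chr3:97032152-97032401, plus strand) and Gja4 (chr4:127314040-127314289, minus strand) are shown as those of the connexin genes. One annotated promoter of Rbpj (chr5:53590096-53590345, plus strand) is shown because Rbpj was the only gene of the 8 with the RBPJ motif. The matches lie 149 and 65 bases before the start. Bases are given 5′ to 3′ on the strand of the gene, and capitals mark the motif on either strand.
Gja5: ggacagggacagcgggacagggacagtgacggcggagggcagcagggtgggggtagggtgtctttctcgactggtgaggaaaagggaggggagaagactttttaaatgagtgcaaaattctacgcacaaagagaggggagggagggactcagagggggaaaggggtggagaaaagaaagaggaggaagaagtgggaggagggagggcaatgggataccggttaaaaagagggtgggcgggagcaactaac
Gja4: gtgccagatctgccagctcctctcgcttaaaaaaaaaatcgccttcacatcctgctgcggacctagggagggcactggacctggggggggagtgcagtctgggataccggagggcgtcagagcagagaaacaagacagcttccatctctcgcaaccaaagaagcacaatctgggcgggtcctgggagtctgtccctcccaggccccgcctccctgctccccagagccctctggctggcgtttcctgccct
Rbpj: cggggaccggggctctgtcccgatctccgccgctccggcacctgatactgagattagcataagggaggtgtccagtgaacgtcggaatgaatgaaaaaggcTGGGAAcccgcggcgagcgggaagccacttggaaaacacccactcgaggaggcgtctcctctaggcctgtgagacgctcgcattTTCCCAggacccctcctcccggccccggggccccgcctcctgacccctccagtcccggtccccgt
No promoter of the 8 genes held the E-box. The other annotated promoter of Rbpj in the table overlaps the first and holds its second match. These letters describe the window only.

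The cells left out as other types held some of these genes as well. In the mural cluster (214 healthy and 220 MI cells, which also held 334 and 429 CPM of the endothelial gene Cdh5), Gja4 was at 436 CPM in healthy and 511 CPM in MI mice, Jag1 at 156 and 154 CPM, Hey1 at 182 and 226 CPM, and Hes1 at 764 and 418 CPM. These levels exceeded those over all EC in the same group for each of the 4 genes. In haematopoietic cells Rbpj was at 98.1 CPM in healthy and 56.5 CPM in MI mice, above its level in EC, while Notch4 was at 26.8 and 20.5 CPM and Dll4 at 35.7 and 26.6 CPM, below it. These cells were pooled over the mice of a group and no test was made.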

How the data were processed

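Single-cell 3' RNA libraries of 4 healthy and 4 MI mice were made with the 10x Chromium assay. The authors aligned reads to mm10 with Cell Ranger and, per the submitters' processing notes, used R 3.5.2 and Seurat 2.3. The deposited table holds raw UMI counts of 16791 genes in 31028 cells, with reporter cells of each mouse as 1 library and no normalization. Cells with under 400 genes or over 20% mitochondrial UMIs had been removed (lowest 403 genes, highest 19.963%). UMI counts mark molecules, but each gene is read near its 3' end, so isoforms are not told apart.

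Cells found in 2 libraries (at least 90% matched UMIs) were kept once. They were left out of Healthy 227 where shared with 228, of Healthy 228 where shared with 239, and of Healthy 239 where shared with 240. Clusters (Seurat 5.3.0) with at least 3 markers of another cell type and cells with 2 lymphatic markers were left out, and no doublet caller was run, so cells that met several marker rules may include doublets. UMI counts were summed per mouse, or per mouse and class with at least 20 cells, scaled by TMM and tested with edgeR 4.0.16 (R 4.3.3, filterByExpr, glmQLFit, glmQLFTest), adjusted by Benjamini-Hochberg over all genes tested and called at 0.05. The log2 fold changes include the TMM factors (0.948 to 1.05), unlike the CPM. Each mouse was a replicate. Shares were compared by the exact permutation test over 70 splits. On simulated data the test over all EC recovered 78% of genes changed by 1 (log2) and 97% of those changed by 2. The genes, their classes and the gene lists were chosen with earlier results of these data known. The genes named were the 10, the called list genes (at most 6 in each direction) and 3 neighbours of each by correlation. Alternatives were DESeq2 1.42.0, RLE factors, library sizes alone, other gates, thinning to 1000 UMIs, and leaving out cells or mice. Others were the level of Xist as a covariate over all EC and no filter on low counts. The study used male and female mice, and sex was no term in the main fits. Gene and promoter positions came from RefSeq (GRCm38.p6).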

Additional observations from a re-analysis of the deposited data

Results flagged for a closer look

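In groups of 4 mice, a mouse was singled out where its gap to the nearest other mouse was most of the range of its group. Chance does this in about 1 of 20 groups, and 110 groups were examined. Gja5 over all EC was 32.4 CPM in Healthy 239 and 11.4 to 14.7 CPM in the other healthy mice. The same mouse had the largest arterial share of the healthy mice, 16.3% of EC against 10.1% to 10.7%. Its arterial cells also held the most Gja5 of the healthy group, 145 CPM in a range from 72.8 CPM. What either contributed to the level over all EC was not tested. Gja5 in sprouting cells was 1.77 CPM, from 1 UMI, in Healthy 240 and 0 in the other healthy mice. Notch1 in Plvap-high cells was 87.3 CPM in MI 250 and 74.96 to 76.4 CPM in the other MI mice.

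In the mural cells left out of the comparisons, Notch4 was at 60.9 CPM (95% exact Poisson interval 48.9 to 75.1, counting error only) in MI and 28.1 CPM (18.7 to 40.6) in healthy mice. The values were pooled over mice and the difference was not tested. Cdh5, an endothelial gene, was also higher in the mural cells of MI mice, at 429 CPM against 334 CPM.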

How the results depend on the processing

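The directions of Notch1, Dll4, Jag2, Hey1, Hes1 and Gja5 over all EC were kept under every alternative run, and so were the arterial calls of the 7 genes other than Gja5. Calls lost without 1 mouse are given beside each result. No paired analysis was possible because the healthy and MI mice share no numbers, and the class contrasts already held the mouse as a block. Plvap-high cells could not be compared in healthy mice only. Counts below are genes called by edgeR unless DESeq2 is named, and the cause of each change was not tested. They are given without the number of genes tested under each alternative. They therefore cannot show whether the chosen genes were called more often than all genes under that alternative. Healthy mice had 45 to 75 venous and 55 to 169 sprouting cells each, few cells for these sums.

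Thinned to 1000 UMIs, all EC gave 2669 genes, 2 of the 10, and 0.14 for Jag1. Thinning before gating gave 1124 genes in capillary, 255 in sprouting and 291 in venous cells, of the 10 genes 1, 0 and 1, and 0.0343 for arterial Jag1. It also left 3 of the 10 in sprouting and 5 in Plvap-high against capillary cells. With cells that met several rules kept, 3187 genes were called in arterial, 3032 in capillary, 1396 in sprouting and 1513 in venous cells, and of the 10 genes 6, 7, 3 and 2. Plvap-high against capillary cells then gave 4518 genes and 5 of the 10, the difference between effects 587 and 3, arterial Notch4 -0.17 and arterial Gja4 -0.27.

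Without Healthy 227 and 228 (added after the data had been seen), 1154 genes were called in capillary, 251 in sprouting, 204 in venous cells and 111 in the difference between effects, with 4 of the 10 in capillary and 2 in sprouting cells. Rbpj was then 0.18 over all EC, 0.10 in arterial and 0.29 in capillary cells. Healthy mice alone gave 1543 genes for arterial, 1765 for sprouting and 957 for venous against capillary cells, and 0.24 for Rbpj in arterial cells. With at least 2 UMIs of the marker, 0 of the 10 were called in sprouting cells, 285 genes in venous cells and 1 of the 10 in the difference between effects, as with shared cells kept (1). Without the filter, 682 genes were called in sprouting and 931 in venous cells, with 1 of the 10 in the latter. DESeq2 gave 1 of the 10 in capillary cells and 83 genes in the difference between effects.

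Leaving out 1 mouse at a time gave 991 (without MI 244) to 1845 genes in arterial, 866 (without MI 250) to 2118 in capillary, 189 (without MI 244) to 632 in sprouting and 257 (without MI 255) to 675 in venous cells, and 118 (without Healthy 239) to 232 in the difference between effects. Of the 10, it gave 1 to 4 in capillary cells, 0 to 1 in sprouting cells, 3 (without MI 250) to 5 in sprouting against capillary cells and 0 to 1 (without Healthy 228) in the difference between effects. Jag1 ranged from -0.24 to 0.0845 over all EC and from -0.21 to 0.13 in arterial cells, Notch4 from -0.0086 to 0.18 in arterial cells, and Rbpj from -0.30 to 0.0291 in capillary and from -0.18 to 0.0465 in arterial against capillary cells. Class shares then passed in 0 of 5 classes, since the exact permutation test cannot reach the threshold with 3 against 4 mice (smallest adjusted p = 0.0571), and the arterial difference ranged from -0.028 to 2.19 percentage points. The thinned Jag1 share ranged from -0.0247 to 0.866 points.

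Without thinning, 7 of the 10 shares passed, all higher after MI, and these differences in percentage points turned from lower to higher: Notch1 7.27, Notch4 9.62, Dll4 8.90, Jag2 2.99, Hey1 1.07, Hes1 10.7 and Rbpj 2.95.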

Other observations

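Plvap-high cells of MI mice were compared with capillary cells for the other list genes. Of 34 Notch pathway genes tested by edgeR, 6 were higher and 3 lower, against 10.5% and 9.19% of all genes. The higher ones were the fringe gene Lfng (log2 fold change 1.39), the co-activator gene Maml3 (1.02), the ligand gene Dll1 (0.91), Fbxw7 (0.65), the protease gene Adam10 (0.57) and Dtx3 (0.49). The co-regulator Snw1 (-0.48), the glycosyltransferase Poglut1 (-0.71) and the Notch target Nrarp (-1.02) were lower. Of 29 other arterial and connexin genes, Clu (4.23), Mgp (3.81), Eln (3.10), Bmx (2.81), the endothelin gene Edn1 (2.41) and Vegfc (0.95) were among 7 that were higher, and Nrp1 (-0.94), Unc5b (-1.68), Rbp7 (-1.86), Hdac9 (-2.13), Cdkn1c (-2.32) and Alpl (-2.49) were among 9 that were lower.

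After MI, Eln was higher in capillary (log2 fold change 0.996) and sprouting cells (1.75) and lower in venous cells (-1.13), each called by edgeR, and the difference between these classes was not tested. Of 23 other arterial and connexin genes tested in venous cells, 1 was higher and 11 were lower, against 8.32% of all genes called, with the lowest values for Edn1 (-2.56), Cdkn1c (-1.67), Cxcl12 (-1.49), Eln, Mecom (-1.11) and Slc6a6 (-0.96). Of 21 Notch pathway genes tested in venous cells, Mfng was higher (0.62) and Lfng lower (-1.04). Clu was higher in capillary (2.38) and sprouting cells (2.76), while in sprouting cells Nrp1 (-0.44), Mecom (-0.81) and Cxcl12 (-0.97) were lower.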
